A study of Rattus norvegicus with 19 samples.

Results

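The matrix metalloproteinases (MMPs), their tissue inhibitors (TIMPs), and the ADAMTS and ADAMTS-like genes were examined in RNA-seq of the rat left ventricle. Members were chosen by gene symbol, and 43 of the 17455 genes in the files belonged: 21 MMPs, 4 TIMPs, 15 ADAMTS and 3 ADAMTS-like genes. Of these, 32 passed the expression filter and were tested (12 MMPs, 4 TIMPs, 13 ADAMTS and 3 ADAMTS-like genes), and 11 did not.

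The 19 libraries came from Sprague-Dawley rats that were 24 weeks old before the study began, with 1 library per heart, so hearts of week 9 came from older rats than hearts of week 5. Disease was induced by a high-fat diet and by L-NAME (0.5 g/L, given in the water), which blocks the synthesis of nitric oxide. At week 5, before treatment, 3 libraries came from rats without L-NAME (control 5w) and 3 from diseased rats (HFpEF, for heart failure with preserved ejection fraction). At week 9, 3 came from rats without L-NAME (control 9w) and 3 from diseased rats given the PBS vehicle (untreated). The paper describes the rats of the control groups as healthy and fed normal chow, so diet also differed from the diseased groups. Diseased rats given empagliflozin, an SGLT2 inhibitor, at 0.35 g/kg/day (EMPA) gave 2 libraries, those given pirfenidone, an antifibrotic drug, at 0.3 g/kg/day (PFD) gave 2, and those given both (EMPA + PFD) gave 3. Total counts ranged from 7430539 to 13017754 per library, with a median of 9951011.

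MMPs are zinc proteases, secreted or anchored in the membrane, that cut collagens and other matrix proteins, and TIMPs bind their active sites and block them. ADAMTS proteases cut proteoglycans such as versican or remove the amino-terminal propeptide of procollagens, and ADAMTS-like proteins share their ancillary domains without a protease domain. In the heart these genes are known for the turnover of the interstitial matrix.

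Several libraries stood apart from the others of their group. Counts of Eif2s3y, a gene of the Y chromosome, were 0 in 7 libraries (HFpEF replicates 1 and 3, the 3 untreated libraries and both PFD libraries) and 613 to 1321 in the other 12, although the labels and the study's methods give the hearts as male. Control 9w against control 5w, EMPA + PFD against control 9w and EMPA + PFD against EMPA therefore compared only libraries with Eif2s3y counts, and PFD against untreated only libraries without. In untreated against control 9w, EMPA + PFD against untreated, EMPA against untreated and EMPA + PFD against PFD, this difference follows the groups and cannot be told apart from them. In the comparisons with HFpEF it does so in part. Counts of the MHC gene RT1-CE16 were at most 3 in control 5w, HFpEF and EMPA, and 308 to 922 elsewhere. This split follows the groups in control 9w against control 5w, untreated against HFpEF, EMPA against untreated and EMPA + PFD against EMPA, and cannot be told apart from them there. The summed level of 6 fibroblast markers was 3152, 18916 and 15869 CPM (counts scaled by library size) in the control 5w libraries, here and below in the order of replicates. Replicate 1 thus lay far below replicates 2 and 3, which were the highest of the 19 libraries. The atrial marker Sln had 1387, 8 and 6975 counts in control 9w and 3, 6378 and 6 in untreated. It was high in control 9w replicates 1 and 3 and in untreated replicate 2. The 5 atrial markers summed to 5197, 188 and 23340 CPM in control 9w and 48.0, 14872 and 484 CPM in untreated. They summed to 3284, 6124 and 4649 CPM in control 5w, 2086, 272 and 1968 CPM in HFpEF and 698 and 5172 CPM in EMPA. Nppa made up most of these last sums, at 2583, 5794 and 4311 CPM in control 5w. It was at 2067, 251 and 1919 CPM in HFpEF and 678 and 5124 CPM in EMPA. Sln was at most 5.95 CPM in the libraries of these groups. Another of the 5 markers, Myl7, had 7368, 3779 and 3855 counts in control 5w and 108, 167 and 445 in HFpEF. The bone gene Ibsp had 996, 8 and 12 counts in HFpEF and 10 and 1952 in EMPA, high in HFpEF replicate 1 and EMPA replicate 2. The 6 cardiomyocyte markers were present in all 19 libraries. Their sum was 69297, 28043 and 31159 CPM in control 5w, 8499.9, 17795 and 26224 CPM in HFpEF and 53916, 16598 and 43283 CPM in untreated, high in control 5w replicate 1 and low in HFpEF replicate 1 and untreated replicate 2. In the other libraries it ran from 26122 CPM in EMPA replicate 2 to 76384 CPM in EMPA + PFD replicate 2.

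A member was called a differentially expressed gene (DEG) at a Benjamini-Hochberg adjusted p under 0.05 and an absolute log2 fold change (log2FC) of at least 1 in edgeR's quasi-likelihood test. The most members were called between the control groups, a comparison of 2 sampling times without L-NAME. In control 9w against control 5w, 7 members were DEGs, where 14.7% of all tested genes were. Timp4 and Adamts9 were higher (7.46% of all tested genes were called higher), and Mmp14, Timp2, Mmp2, Mmp19 and Adamts2 were lower (7.21%). In bulk tissue, fewer cells of a type and less RNA per cell cannot be told apart for any of these genes. By the adjusted p alone 10 members passed (34.5% of all tested genes). Without control 5w replicate 2 there were 6 member DEGs. Without control 5w replicate 1 there were 12 member DEGs, while DEGs among all genes went from 1817 to 2025. Without it and EMPA replicate 2, an alternative chosen after seeing the data, there were 13, and 2020 among all genes.

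For the onset of disease, HFpEF against control 5w, 2 members were DEGs (8.69% of all tested genes), Timp4 and Adamts15, both higher (4.28% were called higher). By the adjusted p alone 4 members passed (20.0%). Timp4 alone was called without control 5w replicate 1, without HFpEF replicate 1 and with a term for Eif2s3y counts, which rests on HFpEF replicate 2 against replicates 1 and 3, and a fit on only the compared libraries called 0 members. For the established disease, untreated against control 9w, 0 members were DEGs (0.912%) in edgeR, 5 had an unadjusted p under 0.05 (18.2%), and DESeq2 called 2, Timp4 and Adamts9. Timp4 was called in edgeR without HFpEF replicate 1 and also when control 9w replicate 3 was omitted, and Adamts9 without EMPA + PFD replicate 1, for a count of 1 each time.

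The difference between these disease contrasts, week 9 minus week 5, was itself tested. It gave 4 DEGs (12.0% of all tested genes), Timp4, Timp3, Adamts9 and Adamts15, each with a lower disease difference at week 9 (5.67% were called lower). For the progression of disease, untreated against HFpEF, 0 members were DEGs (0.194%) in edgeR, 8 had an unadjusted p under 0.05 (22.7%), and DESeq2 called 2, Timp1 and Timp2. Without untreated replicate 2 there were 4, Adamts15, Mmp2, Timp1 and Timp2. Timp2 was called when control 5w replicate 1 was omitted, and Timp1 when HFpEF replicate 2 was, for a count of 1 each time.

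The treatments called few members. Between EMPA + PFD and untreated, 0 members were DEGs (3.82% of all tested genes) in edgeR and 0 in DESeq2, and 4 had an unadjusted p under 0.05 (32.7%). Without untreated replicate 1 the count was 1, Adamts10, and without EMPA + PFD replicate 1 it was 2, Adamts12 and Adamts5. Between EMPA and untreated, 0 were DEGs (0.0404%) in edgeR and 0 in DESeq2, with 4 at an unadjusted p under 0.05 (8.63%), and 1, Mmp9, was called without EMPA replicate 1. That omission leaves EMPA replicate 2, with 468 counts of Mmp9 against at most 12 in the other 18 libraries, as the EMPA group, so this library alone admits Mmp9 to the test and decides the call. Between PFD and untreated, 0 were DEGs (0.00807%) in edgeR and 0 in DESeq2, with 1 at an unadjusted p under 0.05 (5.21%). The interaction of EMPA and PFD gave 0 (0.00807%) in edgeR and 0 in DESeq2, with 2 at an unadjusted p under 0.05 (9.13%).

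Relative to control 9w, EMPA + PFD had 1 member DEG (12.1% of all tested genes), Adamts10, which was lower (4.92% were called lower), and 2 members passed the adjusted p alone (33.8%). Without EMPA + PFD replicate 2 the count was 0. Where PFD was added to EMPA, EMPA + PFD against EMPA, 1 member was a DEG (3.44%), Mmp13, which was lower (1.28% were called lower). This call rested on EMPA replicate 2, without which 0 were called. Where EMPA was added to PFD, EMPA + PFD against PFD, 0 members were DEGs (0% of all tested genes) in edgeR and 0 in DESeq2, and 0 had an unadjusted p under 0.05 (10.2%). Comparisons that name the same group share its libraries, so their values are not independent.

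Members whose libraries did not overlap between groups numbered 15 in control 9w against control 5w (49.4% of all tested genes), 6 in HFpEF against control 5w (37.7%), 8 in untreated against control 9w (23.0%) and 6 in untreated against HFpEF (19.1%). Among the treatments they numbered 6 in EMPA + PFD against untreated (37.4%), 5 in EMPA (23.7%) and 7 in PFD against untreated (24.2%), and 9 in EMPA + PFD against control 9w (51.2%), 10 against EMPA (50.6%) and 3 against PFD (33.8%). The median log2FC of the 32 tested members was -0.55 in control 9w against control 5w, beside -0.04 for all tested genes. It was -0.03 in HFpEF against control 5w, beside +0.02, +0.11 in untreated against control 9w, beside +0.01, and -0.38 in untreated against HFpEF, beside -0.01. Against untreated it was -0.28 in EMPA + PFD, beside -0.03, +0.15 in EMPA, beside +0.01, and -0.32 in PFD, beside -0.02. For EMPA + PFD it was -0.12 against control 9w, beside -0.08, -0.45 against EMPA, beside -0.05, and -0.15 against PFD, beside +0.01. Mmp13, at 0 in EMPA + PFD, lay below the median against EMPA also when set to its bound, so the median could not change.

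Mmp2, gelatinase A, cleaves denatured collagen and basement membrane collagen. It stood at 266, 1233 and 1041 CPM in control 5w and 240.4, 153 and 263 CPM in control 9w. Replicate 1 of control 5w lay near the control 9w level, and replicates 2 and 3 were several times higher, so the groups were separated by a narrow margin. Mmp2 fell between the controls (log2FC = -1.95, SE = 0.48, adjusted p = 0.00697). In HFpEF it was at 885, 536 and 784 CPM and in untreated at 224, 448 and 241 CPM. All untreated libraries were below all HFpEF libraries, but the difference missed the adjusted threshold (log2FC = -1.27, SE = 0.47, adjusted p = 0.149). In the treated groups it stood at 200.4 and 338 CPM with EMPA, 323 and 239 CPM with PFD and 345, 159 and 286 CPM with both, and each of these groups overlapped untreated.

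Mmp14, the membrane-type protease that activates pro-MMP2, was at 76.7, 332 and 288 CPM in control 5w and 35.3, 22.8 and 48.5 CPM in control 9w. All control 9w libraries were below the lowest control 5w library, and Mmp14 fell (log2FC = -2.71, SE = 0.53, adjusted p = 0.00193). It was at 280.0, 122 and 171 CPM in HFpEF and 71.7, 114 and 68.1 CPM in untreated. Untreated libraries were all above control 9w, with an adjusted p of 0.201 in edgeR (log2FC = +1.25). EMPA, PFD and EMPA + PFD had 48.9 and 103 CPM, 65.6 and 68.2 CPM and 80.9, 36.5 and 35.7 CPM in turn. The EMPA + PFD libraries overlapped both control 9w and untreated.

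Of the remaining MMPs, Mmp19 had 10.6, 28.1 and 24.8 CPM in control 5w and 6.99, 5.53 and 7.58 CPM in control 9w. It fell, with every control 9w library below the lowest of control 5w (log2FC = -1.65, SE = 0.41, adjusted p = 0.00742). Mmp24, membrane-type 5, had 34.8, 23.98 and 26.02 CPM in control 5w and 41.96, 36.6 and 71.9 CPM in control 9w. The groups did not overlap, and Mmp24 passed the adjusted threshold but not the fold threshold (log2FC = +0.83, SE = 0.24, adjusted p = 0.0162). Mmp15, membrane-type 2, had 76.3, 82.6 and 70.9 CPM in control 9w and 149.6, 114 and 154 CPM in untreated. All untreated libraries were higher, without passing the adjusted threshold (log2FC = +0.86, SE = 0.35, adjusted p = 0.198). The 12 tested MMPs had a median log2FC of -1.27 in control 9w against control 5w, beside -0.04 for all tested genes. In that comparison it was -0.15 for the 4 TIMPs, +0.12 for the 13 tested ADAMTS and -0.34 for the 3 ADAMTS-like genes.

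Timp1, an inhibitor of most secreted MMPs, was at 19.6, 103 and 89.7 CPM in control 5w and 214, 33.9 and 118 CPM in HFpEF, so the groups overlapped widely. In control 9w it was at 29.3, 19.6 and 45.4 CPM and in untreated at 12.2, 41.7 and 14.01 CPM. Replicate 2 was the highest untreated library and lay above the lowest HFpEF library, and the difference missed the adjusted threshold (log2FC = -2.42, SE = 0.76, adjusted p = 0.107). EMPA libraries had 12.7 and 67.5 CPM, PFD 22.7 and 12.2 CPM and EMPA + PFD 13.7, 20.1 and 18.3 CPM. The high value among these was EMPA replicate 2.

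Timp2, which also links MMP14 to pro-MMP2, was at 216, 653 and 552 CPM in control 5w and 153, 126 and 191 CPM in control 9w. It fell, with every control 9w library below the lowest control 5w library (log2FC = -1.59, SE = 0.35, adjusted p = 0.00389). HFpEF had 649.9, 348 and 479 CPM and untreated 179, 277 and 186 CPM. These groups did not overlap either, but the difference missed the adjusted threshold in edgeR (log2FC = -1.20, SE = 0.35, adjusted p = 0.0956). The treated groups lay at 143 and 249.6 CPM (EMPA), 162 and 162 CPM (PFD) and 179.9, 155 and 201 CPM (EMPA + PFD). Both PFD libraries were below every untreated library and the other groups overlapped untreated, with no call.

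Timp3 binds to the matrix and inhibits ADAMTS proteases and ADAM17 as well as MMPs. It was at 174, 201 and 201 CPM in control 5w and 389.6, 219.7 and 349 CPM in HFpEF, and all HFpEF libraries were higher. The adjusted threshold was passed and the fold threshold was not (log2FC = +0.74, SE = 0.22, adjusted p = 0.0291). Timp3 was at 384, 324 and 343 CPM in control 9w, above every control 5w library (log2FC = +0.87, SE = 0.22, adjusted p = 0.00773), and at 225, 266 and 215 CPM in untreated. Untreated libraries were all below control 9w, short of the adjusted threshold (log2FC = -0.57, SE = 0.22, adjusted p = 0.172). The disease difference was lower at week 9 than at week 5 (log2FC = -1.31, SE = 0.31, adjusted p = 0.0107). EMPA had 192 and 239 CPM, PFD 251 and 199 CPM and EMPA + PFD 197, 292 and 343 CPM, overlapping untreated.

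Timp4, the TIMP known for its expression in the heart, was called in both comparisons with control 5w. It was at 30.6, 19.2 and 21.3 CPM in control 5w and 31.4, 102 and 103 CPM in HFpEF. Replicate 1 of HFpEF lay just above the highest control, the others far above, and Timp4 rose (log2FC = +1.73, SE = 0.42, adjusted p = 0.0130). Control 9w had 179.6, 216 and 100.3 CPM, all above control 5w (log2FC = +2.80, SE = 0.43, adjusted p = 5.00e-04), and untreated had 70.1, 36.05 and 58.2 CPM. All untreated libraries were below all control 9w libraries, just short of the adjusted threshold (log2FC = -1.59, SE = 0.41, adjusted p = 0.0591). The estimates of the disease difference had opposite signs at weeks 5 and 9, and their difference passed the test (log2FC = -3.33, SE = 0.59, adjusted p = 0.00297). EMPA had 95.5 and 65.8 CPM, PFD 97.4 and 81.1 CPM and EMPA + PFD 54.9, 82.4 and 101 CPM. Both PFD libraries were above untreated, with no call in edgeR (log2FC = +0.71, SE = 0.45, adjusted p = 0.786).

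In the RefSeq annotation of GRCr8, Timp4 lies within Syn2, Timp3 within Syn3 and Timp1 within Syn1, while the counts were made on rn6. Whether reads were counted by strand is not given in the sources used here, so reads from these pairs may be shared. Syn2 had 23, 25 and 21 counts in control 5w, 46, 77 and 129 in HFpEF, 159, 188 and 101 in control 9w and 57, 33 and 50 in untreated. Syn2, chosen after its values were seen, was low in control 5w and high in control 9w, as Timp4 was, and its part in the result of Timp4 was not tested. It was itself a DEG in HFpEF against control 5w (log2FC = +1.91) and between the controls (+3.14). Syn3, also named after its values were seen, had 13, 13 and 13 counts in control 5w and 27, 30 and 11 in HFpEF. It had 28, 27 and 28 in control 9w and 18, 23 and 15 in untreated. The part of Syn3 in the result of Timp3 was not tested. Timp2 overlaps Cep295nl and Mmp24 overlaps Mmp24os in the same annotation.

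**Figure D1:**
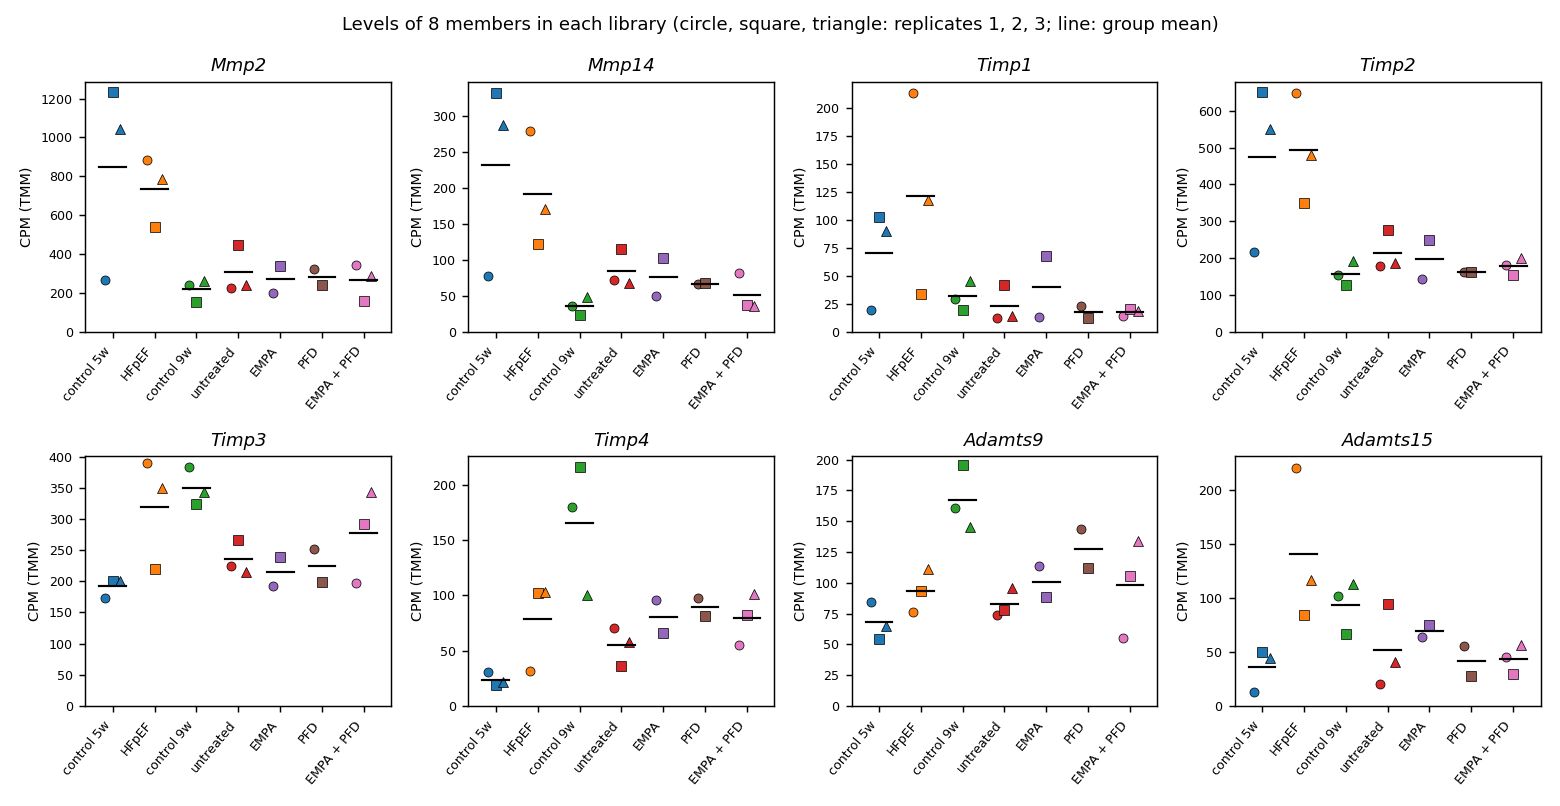
Levels of 8 members in each library, as TMM-normalized CPM on a linear axis, by group. Circles, squares and triangles are replicates 1, 2 and 3, and lines are group means; Timp4 is high in control 9w at 179.6, 216 and 100.3 CPM, and Mmp2 is high in control 5w replicates 2 and 3.

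Among the ADAMTS proteoglycanases, which cut versican and aggrecan, Adamts9 and Adamts15 were called. Adamts9 had 84.7, 54.8 and 65.3 CPM in control 5w and 161, 196 and 145 CPM in control 9w, with no overlap, and rose (log2FC = +1.29, SE = 0.27, adjusted p = 0.00277). It had 76.2, 93.3 and 111 CPM in HFpEF and 73.96, 77.9 and 96.2 CPM in untreated. All untreated libraries were below all control 9w libraries, just short of the adjusted threshold (log2FC = -1.01, SE = 0.27, adjusted p = 0.0618). The disease difference was lower at week 9 (log2FC = -1.47, SE = 0.38, adjusted p = 0.0155). Adamts9 stood at 114 and 88.2 CPM with EMPA, 144 and 112 CPM with PFD and 55.1, 106 and 134 CPM with both. Against control 9w, EMPA + PFD libraries were all lower, past the adjusted but not the fold threshold (log2FC = -0.76, SE = 0.27, adjusted p = 0.0383).

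Adamts15 had 12.6, 49.97 and 44.8 CPM in control 5w and 221, 84.2 and 116 CPM in HFpEF, and rose without overlap (log2FC = +1.97, SE = 0.57, adjusted p = 0.0257). The highest library was HFpEF replicate 1, and without it the adjusted p was 0.0972. It was 0.0789 without control 5w replicate 1 and 0.0526 without control 5w replicate 3, and 0.00304 to 0.279 over all alternatives. Control 9w had 102, 67.1 and 113 CPM and untreated 20.3, 94.8 and 40.7 CPM, of which replicate 2 lay within the control range. The disease difference was lower at week 9 (log2FC = -2.83, SE = 0.79, adjusted p = 0.0223), with an adjusted p of 0.0521 without HFpEF replicate 1, 0.0537 without untreated replicate 1 and 0.0554 without untreated replicate 3, and 0.00247 to 0.0554 over all alternatives. The treated libraries had 64.5 and 75.4 CPM (EMPA), 55.5 and 27.5 CPM (PFD) and 45.2, 29.4 and 56.7 CPM (EMPA + PFD), inside the untreated range.

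Adamts1 had 105, 94.7 and 118 CPM in control 5w and 226, 132 and 253 CPM in HFpEF, all higher, but short of the adjusted threshold (log2FC = +0.94, SE = 0.42, adjusted p = 0.120). Control 9w had 175, 171 and 255 CPM and untreated 248, 299.7 and 277 CPM. EMPA + PFD had 187, 745 and 267 CPM, PFD 477 and 223 CPM and EMPA 203 and 253 CPM. EMPA + PFD replicate 2 and PFD replicate 1 were the highest of the 19 libraries, and all treated groups overlapped untreated. Adamts4 had 3.39, 13.04 and 13.4 CPM in control 5w, 27.99, 12.01 and 18.3 CPM in HFpEF, 3.27, 2.83 and 8.67 CPM in control 9w and 5.17, 12.5 and 12.5 CPM in untreated. Its groups overlapped in HFpEF against control 5w. EMPA, PFD and EMPA + PFD had 12.4 and 18.9, 20.9 and 11.1 and 6.74, 9.21 and 4.07 CPM of Adamts4. Adamts5 had 36.2, 48.2 and 47.99 CPM in control 5w and 23.4, 17.96 and 25.6 CPM in control 9w, all lower at week 9 and past the adjusted but not the fold threshold (log2FC = -0.98, SE = 0.31, adjusted p = 0.0241). It was at 28.1, 33.8 and 32.4 CPM in HFpEF and 38.5, 38.4 and 27.4 CPM in untreated. With EMPA it was at 22.8 and 13.7 CPM, with PFD at 21.6 and 35.5 CPM and with both at 33.5, 11.8 and 18.8 CPM, and only the EMPA libraries were all below untreated.

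Adamts2, a procollagen N-propeptidase, had 61.5, 343 and 262 CPM in control 5w and 62.8, 41.2 and 81.6 CPM in control 9w. It fell (log2FC = -1.85, SE = 0.52, adjusted p = 0.0141), although control 5w replicate 1 lay within the control 9w range. The adjusted p was 0.0707 without control 5w replicate 2 and 0.0678 without control 9w replicate 2, and 0.00161 to 0.0707 over all alternatives. Adamts2 was at 169.6, 102 and 127 CPM in HFpEF, 61.4, 158 and 50.7 CPM in untreated, 52.5 and 65.3 CPM in EMPA, 69.8 and 63.2 CPM in PFD and 70.8, 42.4 and 60.4 CPM in EMPA + PFD. Untreated replicate 2 was the high value at week 9.

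Adamts7 and Adamts12 cut cartilage oligomeric matrix protein. Adamts7 had 118, 68.2 and 74.8 CPM in control 5w and 27.5, 59.8 and 51.2 CPM in HFpEF. All HFpEF libraries were lower, past the adjusted but not the fold threshold (log2FC = -0.92, SE = 0.25, adjusted p = 0.0227). Adamts12 had 43.5, 39.4 and 35.7 CPM in untreated and 46.00, 83.6 and 75.8 CPM in EMPA + PFD. All EMPA + PFD libraries were higher, just short of the adjusted threshold (log2FC = +0.79, SE = 0.25, adjusted p = 0.0527).

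Adamts10, which binds fibrillin, had 177, 194 and 158 CPM in control 9w and 93.5, 68.4 and 71.8 CPM in EMPA + PFD. All EMPA + PFD libraries were lower and Adamts10 fell (log2FC = -1.18, SE = 0.33, adjusted p = 0.0148). The adjusted p was 0.0652 without EMPA + PFD replicate 2, which gives a count of 0, and 0.0538 without replicate 3, against 0.00146 to 0.0652 over all alternatives. It had 104, 225 and 129.5 CPM in untreated, all above EMPA + PFD without a call (log2FC = -0.97, SE = 0.33, adjusted p = 0.0649), 146 and 184 CPM in EMPA and 93.5 and 110.5 CPM in PFD. The alternatives added Timp4 to the calls when HFpEF replicate 1, control 9w replicate 3 or untreated replicate 2 was omitted. They added Adamts1 without EMPA + PFD replicate 1, for a count of 2 each time. The count was also 2 without EMPA replicate 1 and without either PFD replicate, where Adamts18 entered the test through EMPA replicate 2, which is in neither group. Adamts18 had 0, 0 and 0 counts in control 9w and 3, 4 and 3 in EMPA + PFD, about the floor of 3 counts, so that nothing is read from this call.

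Mmp13, collagenase 3, cuts fibrillar collagens and is known from cartilage and bone. It had 1 and 1100 counts in EMPA and 0, 0 and 0 in EMPA + PFD. Replicate 2 of EMPA held nearly all counts, and the only other library with over 3 was HFpEF replicate 1, with 56, 0 and 0 counts over the HFpEF libraries. These libraries carried Mmp13 through the expression filter. Mmp13 was a DEG in EMPA + PFD against EMPA (adjusted p = 0.0317), where the mean EMPA level was at least 195-fold higher than 3 counts in each EMPA + PFD library, a mean that replicate 2 carried. The adjusted p was 0.696 without EMPA replicate 2, 0.0971 without EMPA + PFD replicate 2 and 0.0874 without EMPA + PFD replicate 3, each with a count of 0, and 0.0216 to 0.700 over all alternatives that tested it. Mmp9, gelatinase B, had 5, 12 and 8 counts in control 5w, 10, 5 and 2 in HFpEF, 1, 2 and 3 in control 9w, 6, 9 and 8 in untreated, 4 and 468 in EMPA, 4 and 3 in PFD and 0, 5 and 10 in EMPA + PFD. The same EMPA library thus had 468, against at most 12 in the other 18, and 31 of Adamts18, against at most 4. Neither passed the filter with all libraries, and Adamts18 was named after its values were seen. Without EMPA replicate 1 the count of DEGs was 3 (Adamts18, Mmp13 and Mmp9), and without either PFD replicate it was 2 (Mmp13 and Mmp9), with Adamts18 and Mmp9 tested there through EMPA replicate 2. Adamts10 joined Mmp13 when control 5w replicate 1 or untreated replicate 2 was omitted, for a count of 2, and 0 were called without HFpEF replicate 1, where Mmp13 did not pass the filter.

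The same libraries held counts of bone and cartilage genes. The 9 bone genes, a list added after the data were seen, summed to 116 and 535 CPM in EMPA and 205, 128 and 116 CPM in HFpEF, with Ibsp the most abundant in EMPA replicate 2 and HFpEF replicate 1. The 7 cartilage, tendon and valve markers summed to 38.2 and 445 CPM in EMPA and 618, 42.3 and 86.7 CPM in HFpEF, with Comp the most abundant in the high libraries. In EMPA + PFD against EMPA, 3 bone genes, 1 of these markers, 2 smooth muscle and pericyte markers and 2 neutrophil markers were DEGs, all lower. The 6 smooth muscle and pericyte markers summed to 1102 and 2953 CPM in EMPA and 948, 803 and 823 CPM in EMPA + PFD, high in EMPA replicate 2. The 5 neutrophil markers summed to 66.1 and 22.2 CPM in EMPA and 4.14, 12.1 and 11.4 CPM in EMPA + PFD, high in EMPA replicate 1. The part of these genes in the result of Mmp13 was not tested, and Mmp13 was not called without EMPA replicate 2.

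**Figure D2:**
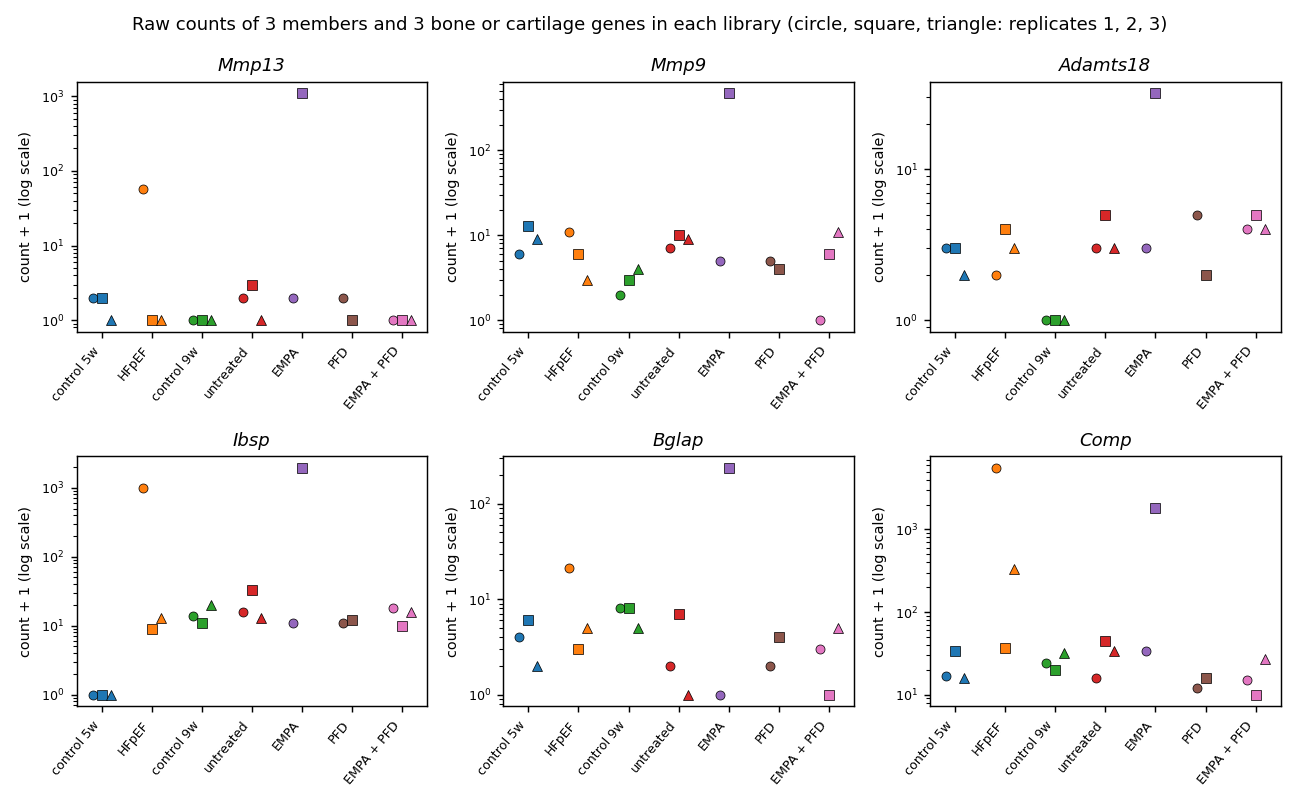
Counts plus 1 on a log axis for 3 members and 3 bone or cartilage genes in each library, by group. Circles, squares and triangles are replicates 1, 2 and 3; EMPA replicate 2 has 468 counts of Mmp9 and the highest value in each panel except Comp, where HFpEF replicate 1 is higher.

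The other 9 untested members had few counts. Adamts16 reached 25 counts, in control 5w replicate 3, Mmp11 reached 8, Mmp3 4, Mmp7 3, Mmp21 2, and Mmp1, Mmp10 and Mmp20 1. Mmp27 had 0 counts in all 19 libraries.

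Of the activators and inhibitors of these proteases, 31 genes were in the files and 28 were tested, and of their matrix substrates, 21 and 20. In control 9w against control 5w, 2 activators or inhibitors rose and 6 fell, and 0 substrates rose and 11 fell, where 7.46% of all tested genes rose and 7.21% fell. The substrates summed to 6988, 55924 and 45449 CPM in control 5w and 7218, 5398 and 8139 CPM in control 9w. Replicate 1 of control 5w lay within the control 9w range, so the fall rested on replicates 2 and 3. First in order of p were Thbs2 (log2FC = -2.20), Adam9 (-1.18), Fbn1 (-3.26), Col5a1 (-2.62), Plat (+1.26) and Fbn2 (-3.33). The substrates had a median log2FC of -2.23. In HFpEF against control 5w, Comp (log2FC = +6.35), Fmod (+3.26), Tll1 (+1.01) and Spock3 rose and Fbn2 (-2.51) fell. Spock3 had 3, 1 and 0 counts in control 5w and 103, 4 and 10 in HFpEF, so HFpEF replicate 1 held most of them. Fmod had 39, 76 and 70 counts in control 5w and 1657, 84 and 211 in HFpEF, again high in HFpEF replicate 1. Fbn2 had 28, 208 and 200 counts in control 5w and 38, 8 and 29 in HFpEF, where control 5w replicate 1 lay within the HFpEF range by CPM and replicates 2 and 3 were high. Comp had 16, 33 and 15 counts in control 5w, 5600, 36 and 329 in HFpEF, 33 and 1834 in EMPA and 14, 9 and 26 in EMPA + PFD, high in HFpEF replicate 1 and EMPA replicate 2. In EMPA + PFD against untreated, Adam17, a shedding protease inhibited by TIMP3, fell (log2FC = -1.10). Serpinf2, the plasmin inhibitor, was also called lower there and against control 9w, with 5, 17 and 19 counts in untreated, 13, 9 and 12 in control 9w and 2, 3 and 4 in EMPA + PFD. The EMPA + PFD counts lay about the floor of 3, and untreated replicate 1 was close to them, so no fold is given. Against control 9w, EMPA + PFD had lower Plat, the tissue plasminogen activator (-1.05). Comp was lower in EMPA + PFD than in EMPA (-5.94). The disease difference was higher at week 9 for Bsg (+1.37) and Thbs2 (+1.42) and lower for Tll1 (-1.72), Plat (-1.08) and Comp (-6.24). Outside control 9w against control 5w, these were the DEGs of both lists in edgeR.

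Markers of several cell types differed in the same comparisons. Of 6 fibroblast markers, 4 fell from control 5w to control 9w, and their sum was 3152, 18916 and 15869 CPM and 2842, 2029.9 and 2802 CPM in turn, with Dcn or Col1a1 the most abundant and none at 0. Replicate 1 of control 5w was low for these markers as it was for Mmp2, Mmp14, Timp2 and Adamts2. Of 6 macrophage and leukocyte markers, 4 fell in the same comparison. Of 5 endothelial markers, 3 rose, with sums of 1368, 1182 and 1354 CPM in control 5w and 2934, 2927 and 2544 CPM in control 9w. The 4 mesothelial and epicardial markers summed to 55.4, 27.7 and 38.99 CPM in control 5w, 71.5, 119 and 131 CPM in HFpEF, 139, 194 and 107 CPM in control 9w and 80.9, 103 and 111 CPM in untreated. Wt1 was the most abundant, and in some libraries 1 or 2 of the 4 were at 0. The sum was low in control 5w and high in control 9w, as Timp4 was. Of the 4, 3 were higher in HFpEF against control 5w and 1 between the controls. In HFpEF, Msln had 233, 6 and 4 counts, Krt19 76, 7 and 2 and Upk1b 84, 16 and 51. Each was highest in replicate 1, the HFpEF library with the lowest Timp4. Beside the rise of Timp4 and Adamts15 in HFpEF against control 5w, 2 of 6 cardiomyocyte markers fell (median log2FC of the 6 = -1.28), and 1 endothelial marker, 2 cartilage, tendon and valve markers and 2 bone genes rose. Of 6 cardiomyocyte markers, 1 fell and 0 rose from control 5w to control 9w, 1 of 6 smooth muscle and pericyte markers rose, 0 of the 4 tested neutrophil markers moved, 2 of 5 atrial markers rose, 0 of 6 tested cartilage, tendon and valve markers moved, and 1 bone gene rose and 1 fell. Beside the change of Timp4, Timp3, Adamts9 and Adamts15 between weeks, the disease difference was lower at week 9 for 2 mesothelial markers, 1 endothelial, 1 cartilage, tendon and valve marker and 1 bone gene, and higher for 2 cardiomyocyte markers and 1 smooth muscle and pericyte marker. Beside the fall of Adamts10 in EMPA + PFD against control 9w, 3 cardiomyocyte markers rose, and 3 endothelial, 4 atrial and 1 mesothelial marker fell. Beside the fall of Adam17 in EMPA + PFD against untreated, 1 cardiomyocyte marker rose and 2 atrial markers fell. The 6 cardiomyocyte markers had a median log2FC of +0.84 there, and the 5 endothelial markers, with 0 called, of -0.74. The part of these markers in the results of the members and of Adam17 was not tested.

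Promoters are shown for the members whose disease difference changed between weeks and for Mmp13, which rested on a single library, and Adamts15 had no entry. RefSeq's GRCr8 promoter table held 33 of the 43 members, as 250 bases before to 50 after the gene start. Motifs were searched on both strands and were chosen after the values were seen: the AP-1 motif TGANTCA, the Runx motif AACCACA, the GC box GGGCGG and the TATA box TATAAA. They occur in 7.3%, 5.6%, 33.1% and 14.2% of the 33469 promoters of this length. Capitals mark matches.
Timp4 (chr4:149985155-149985454, minus strand): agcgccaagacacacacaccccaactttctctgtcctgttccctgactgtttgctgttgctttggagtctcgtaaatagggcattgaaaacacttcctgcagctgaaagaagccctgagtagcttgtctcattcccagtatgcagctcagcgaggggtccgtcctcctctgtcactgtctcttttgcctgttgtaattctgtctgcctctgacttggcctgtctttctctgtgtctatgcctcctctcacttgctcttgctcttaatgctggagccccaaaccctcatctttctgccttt
Timp3 (chr7:19459509-19459808, minus strand): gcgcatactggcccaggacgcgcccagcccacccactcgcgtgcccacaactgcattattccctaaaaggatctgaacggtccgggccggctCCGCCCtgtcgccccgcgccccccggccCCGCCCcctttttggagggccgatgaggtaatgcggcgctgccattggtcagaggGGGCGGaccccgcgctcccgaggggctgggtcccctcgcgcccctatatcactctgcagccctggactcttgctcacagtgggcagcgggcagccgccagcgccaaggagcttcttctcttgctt
Adamts9 (chr4:127019827-127020126, minus strand): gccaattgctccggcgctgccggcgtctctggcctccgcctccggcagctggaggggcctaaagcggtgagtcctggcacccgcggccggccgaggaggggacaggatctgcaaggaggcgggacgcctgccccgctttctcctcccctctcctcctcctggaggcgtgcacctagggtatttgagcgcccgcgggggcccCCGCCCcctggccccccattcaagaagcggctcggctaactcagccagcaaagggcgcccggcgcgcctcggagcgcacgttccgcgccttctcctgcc
Mmp13 (chr8:12782579-12782878, plus strand): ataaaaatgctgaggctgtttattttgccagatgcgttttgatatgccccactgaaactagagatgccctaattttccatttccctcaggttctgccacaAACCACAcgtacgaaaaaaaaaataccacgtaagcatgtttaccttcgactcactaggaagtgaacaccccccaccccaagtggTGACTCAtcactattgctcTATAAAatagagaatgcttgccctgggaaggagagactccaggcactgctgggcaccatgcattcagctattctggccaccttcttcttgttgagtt
The Timp4 window held none of the 4 motifs, the Timp3 window held 3 GC boxes, and the Adamts9 window held a GC box. The Mmp13 window held a Runx motif, an AP-1 motif and a TATA box. Among the 33 members, 7 held the AP-1 motif (Mmp1, Mmp10, Mmp12, Mmp13, Mmp20, Mmp3 and Mmp7), and these are among 9 MMP genes that neighbour each other in GRCr8. A GC box was in 16 members, a TATA box in 12 and the Runx motif in 1. GC content was 50.3% for Timp4, 68.7% for Timp3, 72.3% for Adamts9 and 45.3% for Mmp13.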

How the data were processed

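Left ventricles of 19 rats in 7 groups were sequenced. The authors deposited integer counts for each gene symbol, not normalized. The submitters' processing notes name FastQC, Trim Galore, HISAT2, rn6 and HTSeq; the annotation version, overlap mode and strand setting are not given in the sources used here. Counts were tested in R 4.3.3 with edgeR 4.0.16: TMM, filterByExpr (12388 of 17455 genes kept), 1 model of 7 group means, the quasi-likelihood F test and Benjamini-Hochberg adjustment over all tested genes of each comparison. SE is the absolute log2FC over the square root of F. CPM are TMM-normalized. A fold against a group at 0 used a floor of 3 counts per library, which covers counting error only. The precision at 7430539 to 13017754 counts per library is limited for genes with few counts.

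Members and lists were chosen with earlier results of these data known. The bone list and the promoter motifs were chosen after the values were seen. Named are 14 fixed members, all DEG members, members past the adjusted p alone (up to 5) and pathway DEGs (up to 6 per comparison, in order of p); other genes were chosen after their values were seen. Untested members are given by their highest count. Gene overlaps and promoters are from RefSeq GRCr8, in which all 43 members were found; no coordinates of rn6 are given. A result that needs a withheld item is left out. Alternatives were upper quartile and relative log expression scaling, no filter beyond 1 count, at least 10 counts in every library, DESeq2 1.42.0, a fit on the compared libraries, the adjusted p alone, a replicate block, a term for Eif2s3y counts, and libraries left out.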

Additional observations from a re-analysis of the deposited data

Results flagged for a closer look

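For 4 members the difference between diseased and control hearts changed from week 5 to week 9 by a test of the change itself, edgeR's contrast of the disease difference at week 9 minus that at week 5. The change in log2FC was -3.33 for Timp4, -1.31 for Timp3, -1.47 for Adamts9 and -2.83 for Adamts15. All 4 had a higher estimate at week 5 and a lower one at week 9. For each of the 4, control libraries of week 5 lay below those of week 9 without overlap, and Timp4 and Adamts9 were DEGs there. The HFpEF and untreated libraries overlapped for all 4, and no member was a DEG between them in edgeR. The part of the controls in the change was not tested. The untreated libraries had no counts of Eif2s3y and the control 9w libraries had, while at week 5 HFpEF was mixed and the controls all had counts. These differences cannot be told apart from disease at week 9: only HFpEF held libraries of both kinds, so a term for Eif2s3y counts rests on HFpEF replicate 2 against replicates 1 and 3. Adamts15 lost its call without HFpEF replicate 1 (adjusted p = 0.0521), without untreated replicate 1 (0.0537) and without untreated replicate 3 (0.0554). With 1 library left out, its change in log2FC ran from -3.60 (without untreated replicate 2) to -2.34 (without HFpEF replicate 1).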

How the results depend on the processing

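No member DEG changed direction under any alternative that gave it a value. Counts of member DEGs that moved by over 1.5 times are given by setting, and the cause was not tested. For EMPA + PFD against control 9w the count was 2 with upper quartile scaling, 2 without the filter, 2 with at least 10 counts in every library, 3 in DESeq2, 3 on the compared libraries alone, 2 by the adjusted p alone, and 2 without untreated replicate 2 and HFpEF replicate 1. For EMPA + PFD against EMPA it was 2 without the filter, 0 with at least 10 counts (Mmp13 was then not tested), 3 in DESeq2, and 0 without control 5w replicate 1 and EMPA replicate 2. For HFpEF against control 5w it was 0 on the compared libraries alone, 4 by the adjusted p alone, 1 with a term for Eif2s3y counts (estimated within HFpEF alone), and 1 without HFpEF replicates 1 and 3. For untreated against control 9w it was 2 in DESeq2 and 1 without untreated replicate 2 and HFpEF replicate 1. For untreated against HFpEF it was 2 in DESeq2, 1 with the Eif2s3y term, and 1 without control 5w replicate 1 and EMPA replicate 2. Without those last libraries, control 9w against control 5w gave 13.

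On the compared libraries alone the adjusted p was 0.0809 for Timp4 and 0.0857 for Adamts15 in HFpEF against control 5w, which was 0.277 for Adamts15 with the Eif2s3y term, 0.279 without HFpEF replicates 1 and 3 and 0.0932 without control 5w replicate 1 and EMPA replicate 2. It was 0.0573 for Adamts2 between the controls and 0.0552 for Adamts15 in the change of the disease difference. Leaving out each replicate in turn gave counts of 1 to 3 for HFpEF against control 5w, 0 to 1 for untreated against control 9w, 6 to 12 between the controls, 0 to 4 for untreated against HFpEF, 0 to 2 for EMPA + PFD against untreated, 0 to 1 for EMPA, 0 to 0 for PFD, 0 to 2 for EMPA + PFD against control 9w, 0 to 3 for EMPA + PFD against EMPA, 0 to 0 for EMPA + PFD against PFD, 3 to 6 for the change of the disease difference and 0 to 0 for the interaction. Leaving out an EMPA or PFD library leaves 1, which is assumed to vary like the other groups.

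With the replicate number as a replicate block, EMPA + PFD against EMPA gave 0 calls, and the counts of the other comparisons did not change. The numbers do not pair the samples: of 52 same-numbered pairs 11 had a correlation of deviations over 0.1, and 5 of 19 libraries correlated best with their own number. In EMPA + PFD against untreated, 290 genes of all tested were higher and 183 lower with TMM, and 240 higher and 275 lower with upper quartile scaling.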
